A study of Rattus norvegicus with 5 samples.

Results

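The regions described here are 371 moderate pileups of anti-PARP1 ChIP-seq reads that recurred between libraries on the placed autosomes of the rat, chromosomes 1 to 20, in build rn4. ChIP-seq sequences the DNA that an antibody brings down with a protein, and a pileup is a run of overlapping reads whose height is the number of reads at its summit. Members were chosen by height. Listed peaks of 6 to 9 reads in 3 libraries (cocaine rats of high preference, cocaine rats of low preference and saline replicate 2) were merged where they overlapped, which gave 7128 regions. Those reaching 6 reads in at least 2 of these 3 libraries numbered 706, and 335 of them were left out because a peak of 10 or more reads overlapped them in some library. The 371 members are 5.2% of the merged regions. The heights of those 3 libraries made the choice and are therefore given as a description. Saline replicate 1 entered the rule only through the upper limit, which removed no region on its account alone.

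The 4 libraries came from male rats of the Sprague Dawley strain, whose central amygdala was taken. Their age is not given in the sources used here. Each library pooled 2 rats. In conditioned place preference (CPP), an animal learns to associate a compartment with a drug, and the time it later spends there is taken as a readout of that memory. The cocaine rats received 15 mg/kg cocaine by intraperitoneal injection on days alternating with saline over 10 days, with 20 min in the matching compartment each time, and the saline-only controls received no cocaine. The preference test lasted 15 min and came 24 h after the final injection, and brains were frozen as soon as it ended. Cocaine-trained rats with a high preference gave 1 library (high-CPP), those with a low preference gave 1 (low-CPP), and saline-only rats gave 2. No cocaine group has a replicate, so the distance between the saline libraries is the only measure of spread within a group.

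PARP1, poly(ADP-ribose) polymerase 1, is an abundant nuclear enzyme that binds breaks in DNA and nucleosomes and builds chains of ADP-ribose on proteins, itself included. It takes part in DNA repair, in the loosening of chromatin and in the control of transcription. The central amygdala is a nucleus of the temporal lobe that takes part in emotional learning and in drug seeking. A ChIP pileup shows where DNA gathered reads after pull-down. An input library, made without the antibody, is the usual measure of how many reads a place gathers anyway, and the input of this series was not analysed here.

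Depth sets what a moderate pileup is. Estimated depth was 15594470 reads in high-CPP, 17552845 in low-CPP, 6618031 in saline replicate 1 and 17402838 in the second saline library. Heights of 6 to 9 reads were rare in each list. They made up 0.0547%, 0.0782%, 0.0278% and 0.0806% of autosomal peaks in the same order, and heights under 2 were not listed. Most such peaks did not recur. Members held 15.3% of the peaks of 6 to 9 reads in high-CPP (273 of 1779), 11.0% in low-CPP (338 of 3065) and 11.6% in saline replicate 2 (361 of 3105).

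Heights of the members lay close to the lower limit in the 3 libraries that chose them. In high-CPP the lowest, median and highest heights were 0 (not listed), 6 and 9 reads, in low-CPP 0, 6 and 9, and in saline replicate 2 they were 2, 6 and 9. Saline replicate 1 had 0, 2 and 8. Its values were the lowest of the 4 libraries, as was its depth. High-CPP left 6 members unlisted, low-CPP 3, saline replicate 2 none and saline replicate 1 96. At least 6 reads were reached by 239, 293 and 309 members in high-CPP, low-CPP and saline replicate 2, and by 13 in saline replicate 1.

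**Figure D1:**
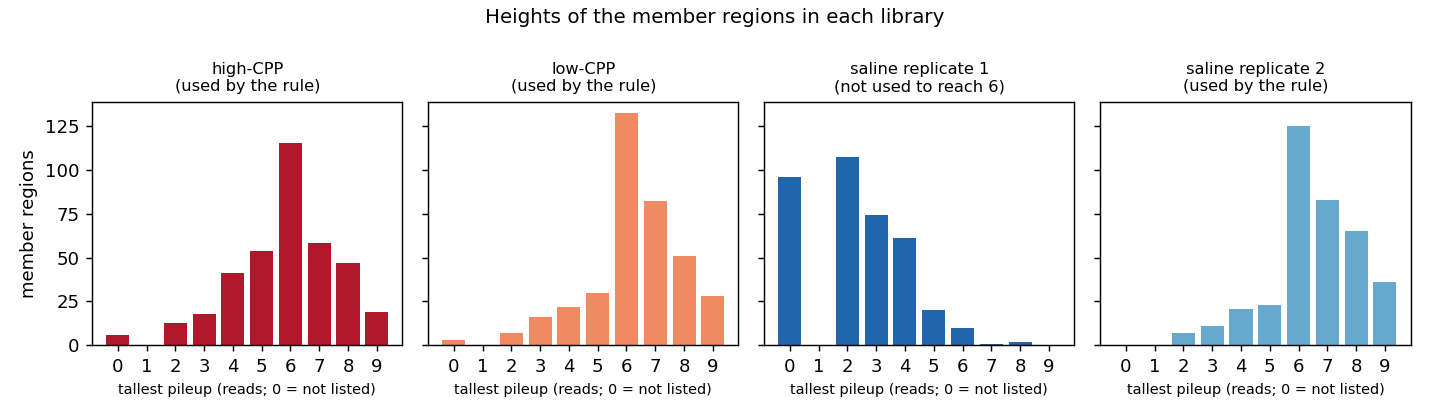
Number of member regions (vertical axis) at each height in reads (horizontal axis) in the 4 libraries, where 0 means not listed. The 3 libraries that chose the members have their largest count at 6 reads, while saline replicate 1 has 96 members at 0 and 107 at 2 reads.

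Most members reached 6 reads in a pair of the libraries and not in the other one. All 3 libraries reached 6 in 99 members (26.7%). Low-CPP with saline replicate 2 did so in 132, high-CPP with saline replicate 2 in 78 and both cocaine libraries without saline replicate 2 in 62. The remaining library was seldom empty. Its median height was 4 reads in each of these patterns, and it stood at 5 reads in 54, 30 and 23 regions in the same order. It was unlisted in 6, 3 and 0. High-CPP, the shallowest of the 3, was the one missing most often. Among 436 tall regions, the autosomal regions with a peak of 10 or more reads in any library, 348 (79.8%) reached 6 in all 3. The number of members depended on the limits and on the libraries. It was 1122 with a lower limit of 5 reads and 144 with 7. Without saline replicate 2 it was 208 and without low-CPP 209, since the remaining pair then had to reach 6 together, and without high-CPP it was 264.

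The held-out saline library listed most of the members. Saline replicate 1 had a listed peak at 275 of 371 members, or 74.1% (95% Wilson interval 69.4 to 78.3), against 24% of all 7128 merged regions. It listed 17.7% of the 6422 single-library regions (16.8 to 18.6), which reached 6 reads in exactly 1 of the 3 libraries and 10 in none. Of the tall regions it listed 91.3% (88.3 to 93.6). Heights of at least 3 reads in saline replicate 1 were found at 45.3% of members (40.3 to 50.4), against 9.74% of all merged regions and 4.53% of single-library regions (4.05 to 5.07). These intervals cover counting error only. Regions of 1 library are not replicates of a condition, and no test over samples was run.

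Mean heights over members were 5.81 reads in high-CPP, 6.27 in low-CPP, 2.33 in saline replicate 1 and 6.53 in the second saline library. Saline replicate 1 thus stood at 0.356 times saline replicate 2, with unlisted pileups counted as 0. Its estimated depth was 0.380 times, and its sum of listed heights 0.184 times, that of saline replicate 2. The heights of saline replicate 2 helped to choose the regions, so these quotients are a description. At tall regions the quotient was 0.367. At single-library regions it was 0.124.

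Listing in saline replicate 1 rose step by step with the second-highest height among the other 3 libraries. It was 9.64% (8.40 to 11.0) where the second-highest library listed nothing, 17.0% at 3 reads and 36.8% at 4 reads. Just outside the rule, at 5 reads, it was 50.9% of 458 regions. Just inside, at 6 reads, it was 66.8% of 229 members, then 83.5% of 91 members at 7 reads and 90.2% of 51 members at 8 or 9 reads. No step set the members apart at the limit of 6. At the upper limit, 76 members had 9 reads as their tallest peak and 86.8% were listed in saline replicate 1. The 75 recurrent regions just above, with 10 reads, were listed at 94.7%.

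**Figure D2:**
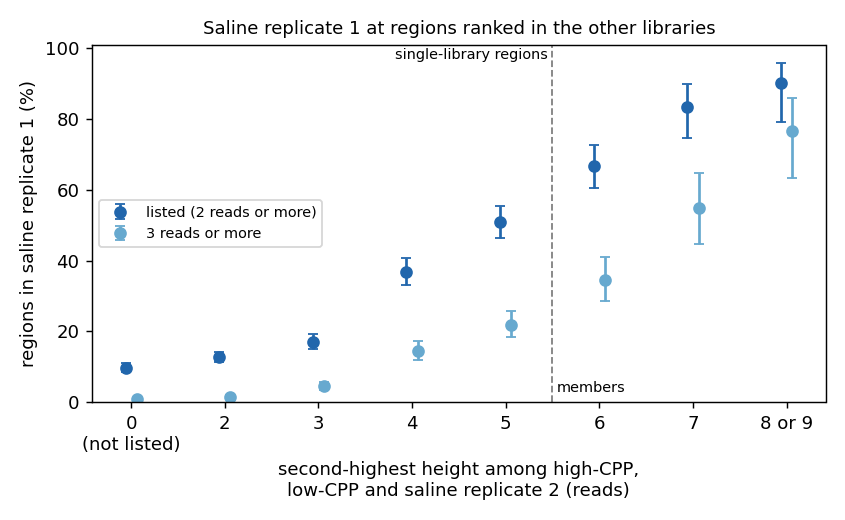
Share of regions with a listed peak (dark points) or a peak of at least 3 reads (light points) in saline replicate 1, with 95% Wilson intervals, by the second-highest height in the other 3 libraries. The listed share climbs from 9.64% to 90.2%, with 50.9% just left of the dashed line that marks the rule and 66.8% just right of it.

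Region length moved with listing. Members had a median length of 353 bp (quartiles 233 and 562 bp), single-library regions 175 bp (106 and 241 bp) and tall regions 343 bp. A member joins peaks of at least 2 libraries and a single-library region those of 1, so the merging itself lengthens members. The tallest single peak in members had a median length of 198 bp in high-CPP, 217 in low-CPP and 223 in saline replicate 2. Within a length class the members were still listed more often in saline replicate 1. Under 200 bp the shares were 58.0% of 69 members (46.2 to 68.9) and 14.6% of 3841 single-library regions (13.5 to 15.8). From 200 to under 400 bp they were 66.4% of 149 (58.5 to 73.5) and 20.0% of 2415 (18.5 to 21.7). At 400 bp or more they were 88.9% of 153 (82.9 to 93.0) and 54.2% of 166 (46.6 to 61.6). The intervals did not overlap in any of the 3 classes, but they treat regions as independent. Of the members, 67.4% lay within 10 kb of another, so the intervals may be too narrow.

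Listing in saline replicate 1 was compared between members that met the rule through different libraries. It listed 83.8% of the members that reached 6 reads in all 3 libraries (75.3 to 89.8). It listed 71.0% of those reaching 6 in both cocaine libraries only (58.7 to 80.8), 69.2% for high-CPP with saline replicate 2 (58.3 to 78.4) and 71.2% for low-CPP with saline replicate 2 (63.0 to 78.3). At heights of at least 3 reads the shares in the same order were 63.6%, 45.2%, 32.1% and 39.4%. The intervals of the 3 pair patterns overlapped in both measures. Regions that had met the rule through saline replicate 2 were therefore not listed detectably more often in the other saline library, at this number of regions, than those that met it through the cocaine pair alone.

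Members were crowded into a few places. Of 371 members, 250 (67.4%) lay within 10 kb of another member and 330 (88.9%) within 1 Mb, with a median distance to the nearest of 3307 bp. For the far more numerous single-library regions the shares were 20.0% and 98.2% and the median distance 109300 bp. Members were found in 103 of 2570 windows of 1 Mb. Chromosomes 17, 1, 16 and 9 held 70, 50, 46 and 45 members, 56.9% of all on 22.2% of the autosomal length. Those chromosomes held 26.0% of the single-library regions. Per 100 Mb the members ranged from 0.903 on chromosome 10, with 1 member, to 72.0 on chromosome 17. Single-library regions ranged from 201 on chromosome 2 to 447 on chromosome 17.

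Chains of members with gaps of at most 1 Mb formed 44 clusters of at least 2 members, and 41 members lay alone. The 11 clusters with at least 10 members held 227 of them (61.2%) on 0.240% of the autosomal length. The 3 largest clusters differed in their tall regions and in how many members reached 6 in all 3 libraries. On chromosome 16 at 20412335 to 22090532, 45 members lay among 68 tall regions, and 16 of the 45 reached 6 reads in all 3 libraries. On chromosome 17 at 53466941 to 53797936, 42 members lay in 331 kb with a single tall region, and only 1 of them reached 6 in all 3. On chromosome 9 at 603092 to 1295054, 39 members lay among 27 tall regions, and 23 reached 6 in all 3. Saline replicate 1 listed 33 of 45, 33 of 42 and 36 of 39 members in these clusters.

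Read density between the pileups separated these clusters. After all merged and tall regions were taken out, estimated reads per kb between them were set against the autosomal mean of each library. In the chromosome 17 cluster they came to 2.10 times the mean in high-CPP, 1.90 in low-CPP, 2.54 in saline replicate 1 and 1.98 in the second saline library. In the chromosome 16 cluster they were 0.268, 0.253, 0.290 and 0.279. In the chromosome 9 cluster they were 0.560, 0.523, 0.648 and 0.491. These are averages over 269 kb on chromosome 17 and over 1600 kb on chromosome 16, gaps without members included. By listed heights in place of estimated reads, the chromosome 16 averages were 0.313, 0.277, 0.363 and 0.319. Listed heights were also used closer to the members, in the 5 kb on either side. There the median over the 45 members of that cluster was 0.751, 0.756, 0.697 and 0.740 times the mean listed height. Of these members 14, 9, 16 and 7 were above 1. In the chromosome 17 cluster all 42 were above 1 in each library. The chromosome 17 stretch held 184 of the merged regions, of which 42 were members.

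The other large clusters lay on both sides of the mean. On chromosome 13 at 30431104 to 30492122, with 10 members and 33 tall regions in 61.0 kb, the values were 1.40, 1.29, 1.77 and 1.43 in high-CPP, low-CPP, saline replicate 1 and saline replicate 2. On chromosome 14 at 21890272 to 22174831, with 18 members, they were 1.25, 1.23, 1.38 and 1.26. On chromosome 20 at 3416272 to 3606625, with 11 members, they were 1.07, 1.06, 1.21 and 1.14. These 3 clusters and the one on chromosome 17 were above 1 in all 4 libraries. On chromosome 18 at 38707006 to 38800399, with 16 members and 36 tall regions, the values were 0.958, 0.898, 1.34 and 0.987. The remaining 6 clusters were below 1 in all 4 libraries. By listed heights in place of estimated reads, 6 of the 11 clusters were above 1 in all 4 libraries and 4 were below 1 in all 4.

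**Figure D3:**
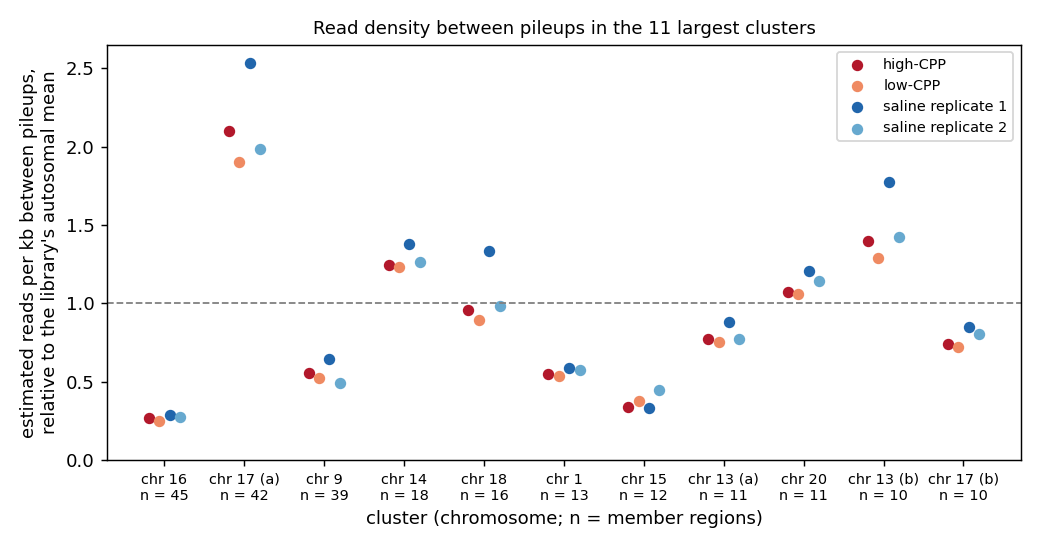
Estimated reads per kb between pileups relative to the library's autosomal mean (vertical axis, dashed line at 1) in the 11 clusters with at least 10 members (horizontal axis), 1 point per library. The chromosome 17 cluster of 42 members reaches 1.90 to 2.54 and the chromosome 16 cluster of 45 members 0.253 to 0.290.

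Differences between the libraries at these clusters were given on both measures. By estimated reads, the highest of the 3 deeper libraries stood 1.02 to 1.31 times above the lowest, with a median of 1.10 over the 11 clusters. The quotient of saline replicate 1 over saline replicate 2 ran from 0.742 to 1.35, with a median of 1.09. Both cocaine libraries were below both saline libraries in 7 of 11 clusters and above both in none. Both were below saline replicate 2 in 8 and above it in 1. Low-CPP was the lowest library in 9. Saline replicate 1, the shallowest library, was above saline replicate 2 in 10, and the part of depth in this order was not tested. By listed heights the deeper libraries differed more, 1.03 to 1.49 times with a median of 1.15, and the saline quotient ran from 0.656 to 1.87 with a median of 1.23. On that measure both cocaine libraries were below both saline libraries in 6 clusters, and low-CPP was the lowest in 8. On either measure the clusters share the same 4 libraries, so they are not replicates of a condition. No such counts outside these clusters are given here, and whether the order is particular to them was not tested. By estimated reads, the largest gap among the deeper libraries was on chromosome 15 at 28207965 to 30127737, with 12 members. There saline replicate 2 stood at 0.449, against 0.342 in high-CPP, 0.377 in low-CPP and 0.333 in saline replicate 1, so the saline libraries lay on either side of the cocaine libraries.

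Many members lay near a tall region, though 6 of the 11 large clusters held 3 or fewer. A tall region lay within 10 kb of 170 members (45.8%), against 5.05% of single-library regions, and within 100 bp of 33 members. By contrast 81 members had no tall region within 1 Mb. The bins of 100 kb with the most signal in saline replicate 1, the densest 1.07% of 25590 bins, held 52.6% of members (47.5 to 57.6), 9.48% of single-library regions (8.79 to 10.2) and 51.1% of tall regions (46.5 to 55.8). Members thus lay in bins that were also dense in a library that had not been used to find them. The members' own peaks count in these bins.

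Signal was raised well beyond the members themselves. Mean listed height from 10 to 20 kb away from the members was 1.91 times the autosomal mean in high-CPP, 1.68 in low-CPP, 3.55 in saline replicate 1 and 1.84 in the second saline library. Around single-library regions the values were 1.22, 1.19, 1.45 and 1.20. These means include neighbouring members and tall regions. With all merged and tall regions removed, the median over members in the 5 kb on either side was 1.35, 1.20, 1.82 and 1.28 times the autosomal mean, and over single-library regions 1.22, 1.23, 1.16 and 1.22. For the 41 lone members it was 1.05, 1.11, 1.60 and 1.25, and the intervals of these 4 medians included 1. For the 103 members in clusters of 2 to 9 it was 0.999, 0.941, 1.20 and 1.03, and for members in the 11 large clusters 1.62, 1.53, 2.71 and 1.57.

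**Figure D4:**
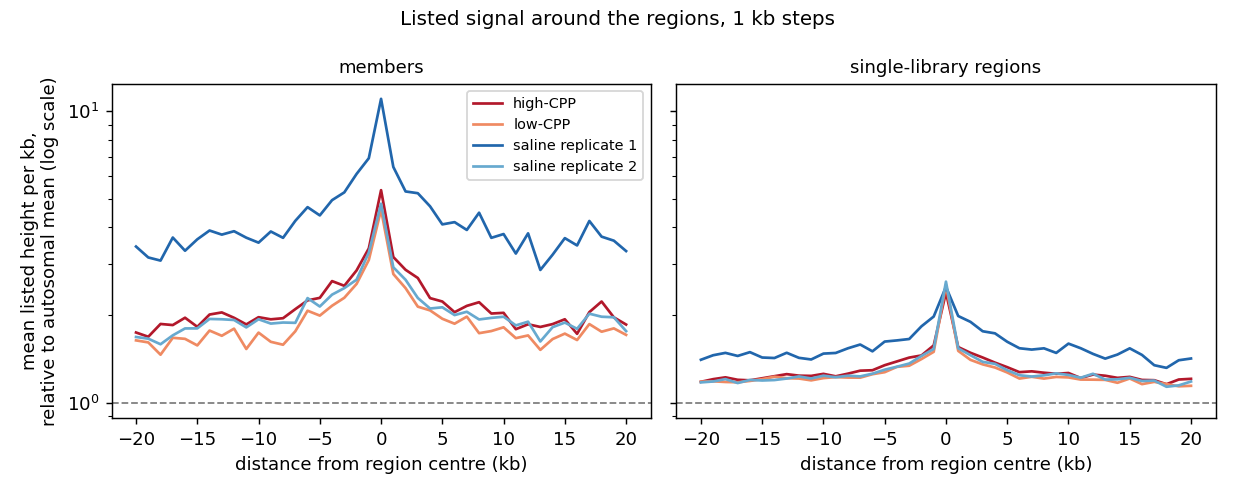
Mean listed height per kb relative to the library's autosomal mean (log axis, dashed line at 1) against distance from the region centre in steps of 1 kb, for members (left) and single-library regions (right). Around members the 4 lines stay well above 1 out to 20 kb, with means of 1.68 to 3.55 beyond 10 kb, against 1.19 to 1.45 around single-library regions. The value of 3.55 is that of saline replicate 1, the shallowest library.

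The merged length of members varied widely, and a long member could be a chain of separate peaks. The shortest spanned 66 bp and the longest 2791 bp, with 69 under 200 bp and 22 of at least 1000 bp. Of the pairs of libraries that both listed a member, 44.1% had summits within 50 bp of each other (844 of 1916 pairs, interval 41.8 to 46.3). The share was 83.5% under 200 bp, 52.4% from 200 to under 400 bp and 22.3% at 400 bp or more. A fixed limit of 50 bp is easier to meet in a short region, where summits have little room to differ. How much of this order comes from length alone was not tested. Tall regions, of about the same median length as members, were at 61.3% (59.4 to 63.2). Single-library regions, of shorter median length, were at 40.4% (39.5 to 41.4), not far below the members. Members in the large clusters were at 39.6% (36.9 to 42.4) and lone members at 51.6% (44.5 to 58.6). The saline pair was at 39.6%, high-CPP with low-CPP at 45.6% and low-CPP with saline replicate 2 at 47.3%. The 3 pairs with saline replicate 1 were the lowest, at 39.6% to 41.6%.

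**Figure D5:**
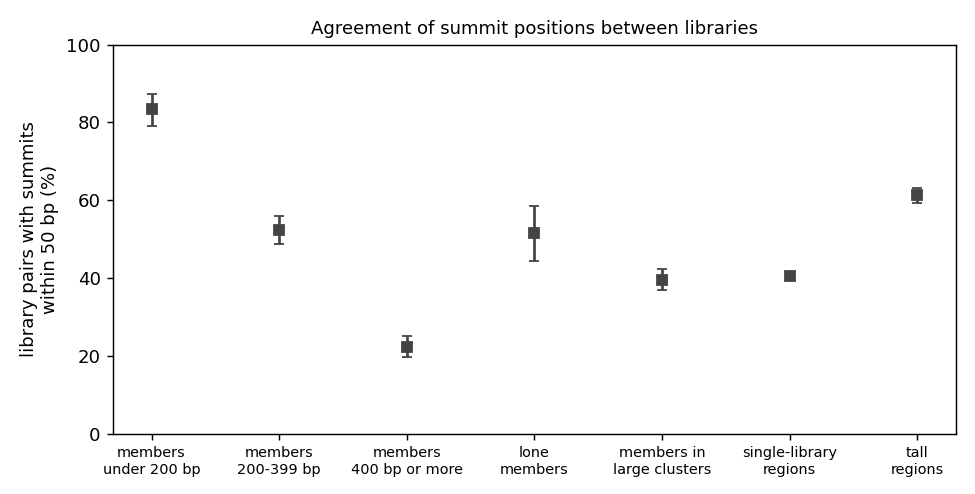
Share of library pairs with summits within 50 bp of each other, with 95% Wilson intervals, for members by length, for lone and clustered members, and for single-library and tall regions. Members under 200 bp reach 83.5% and those of 400 bp or more 22.3%, and the limit of 50 bp is easier to meet in a short region.

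The sharpest of the tallest members lay on chromosome 13 at 19215756 to 19215877, 121 bp long. It had 9 reads in high-CPP, 9 in low-CPP, 6 in saline replicate 1 and 9 in the second saline library, the largest sum of all members. The 4 summits lay within 14 bp of each other, and each library held a single peak there of 88 to 104 bp. A tall region began or ended 31 bp away. On chromosome 9 at 8077057 to 8077595 the heights were 9, 8, 6 and 9 reads in the same order, with summits within 137 bp and no tall region for 6840394 bp. This member was 1 read lower than the first in low-CPP and as high in the other libraries.

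The broadest members all lay in the chromosome 9 cluster. The longest, at 842177 to 844968, had 9, 8, 5 and 8 reads in high-CPP, low-CPP, saline replicate 1 and saline replicate 2. It was made of 9, 8, 15 and 12 listed peaks, and the summits of the tallest were spread over 2200 bp. Its neighbour at 847356 to 849784 had 8, 8, 5 and 9 reads, and the member at 806805 to 809062 had 9, 8, 3 and 8. These regions were chains of several listed peaks in each library, joined by merging, with no shared summit.

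Saline replicate 1 was tallest at 2 members of a smaller cluster on chromosome 17. At 67608302 to 67608516 it had 8 reads, against 3 in high-CPP, 9 in low-CPP and 7 in saline replicate 2. At 67551374 to 67551639 it again had 8, against 7, 5 and 6. On chromosome 4 at 5746482 to 5746645 it had 7 reads, as did both cocaine libraries, while saline replicate 2 had 2. That member also had the largest excess of both cocaine libraries over saline replicate 2, and the gap between the saline libraries, 7 against 2 reads, was as wide as that between cocaine and saline replicate 2. A tall region lay 25 bp away, and the tallest overlapping peak of saline replicate 1 had its summit outside the member. On chromosome 18 at 38734946 to 38735097 the heights were 8, 6, 6 and 9. There too the summit of saline replicate 1 lay outside the member, and a tall region lay 5 bp away.

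High-CPP and low-CPP were compared at single members. The rule used these heights and capped them at 9 reads, so few intervals could leave out 1 and the counts are a description. Most merged regions, 6422 of 7128, reached 6 reads in exactly 1 of the 3 libraries, so their shares are no measure of agreement. Scaled by the sum of listed heights, high-CPP was at least 1.5 times low-CPP at 81 members and low-CPP at least 1.5 times high-CPP at 44. Over all merged regions the shares were 30.1% and 43.2%. The balance turned with the scale, from 81 against 44 to 77 against 53 by estimated depth and to 60 against 102 with no scaling. The median log2 ratio of high-CPP to low-CPP was 0.09 (0.06 to 0.29), and it was -0.02 by estimated depth and -0.19 with no scaling, so that its direction is not fixed by the data. The exact conditional interval of the ratio left out 1 at 3 members with high-CPP higher (9.13% of all merged regions) and at 2 with low-CPP higher (1.98%). By estimated depth it did so at 3 (9.05%) and at 6 (20.2%). These intervals take an unlisted pileup as 0 reads, while the ratios count it as 1. All 5 members, named after their values were seen, were unlisted in the lower library. On chromosome 1 at 111387994, chromosome 4 at 75831714 and chromosome 17 at 53526977, high-CPP had 6 reads and low-CPP was unlisted. On chromosome 15 at 30127625 and chromosome 20 at 2274746, low-CPP had 7 and high-CPP was unlisted.

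The largest gaps between high-CPP and low-CPP rested on few reads. On chromosome 1 at 111387493 to 111387966, high-CPP had 9 reads and low-CPP 3, with 3 in saline replicate 1 and 6 in the second saline library. The scaled ratio of high-CPP to low-CPP was 3.66, with an exact interval of 0.913 to 21.01. On chromosome 2 at 55622497 to 55622597 the heights were 8, 2, 4 and 6, with summits within 17 bp and a scaled ratio of 4.88 (0.973 to 47.1). Both intervals included 1. In the other direction, the member on chromosome 13 at 30461974 to 30462055 had 2 reads in high-CPP, 9 in low-CPP, 4 in saline replicate 1 and 6 in the second saline library, a scaled ratio of 0.271 (0.0285 to 1.31). On chromosome 20 at 2274746 to 2274955 high-CPP listed nothing, against 7 reads in low-CPP, 2 in saline replicate 1 and 7 in the second saline library. Both saline libraries listed an overlapping peak, though that of saline replicate 1 had its summit outside the member.

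Cocaine and saline libraries were compared at the same members. The rule used the heights of high-CPP, low-CPP and saline replicate 2, so these ratios and counts too are a description. Saline replicate 2 was listed at every member and no height passed 9 reads, so a cocaine library could hardly be called above it. The median log2 ratio of the cocaine libraries to saline replicate 2 was -0.06 (-0.12 to -0.01), with quartiles of -0.38 and 0.20. Both cocaine libraries were at least 1.5 times saline replicate 2 at 31 members and saline replicate 2 at least 1.5 times both at 6, against 13.1% and 32.8% of all merged regions. By the rule each member had at least 6 reads in a cocaine library, so saline replicate 2 could hardly stand far above both. Saline replicate 2 itself could lie as low as 2 reads, so the counts of 31 and 6 were not equally free. With intervals that left out 1, saline replicate 2 was above high-CPP at 2 members (2.12% of all) and above low-CPP at 3 (17.5%), and neither cocaine library was above it at any member (8.87% and 17.5%). By estimated depth saline replicate 2 was above high-CPP at 6 members (19.1%) and above low-CPP at 3 (17.5%), and again neither cocaine library was above it at any (8.85% and 17.5%). The largest lead of saline replicate 2 over both cocaine libraries was 3 reads, the most that the rule allows. It had that lead on chromosome 11 at 9576641 to 9576812, with 6, 6, 4 and 9 reads in high-CPP, low-CPP, saline replicate 1 and saline replicate 2. That member lay alone, 36701169 bp from the nearest tall region, and its summits lay within 35 bp. On chromosome 16 at 20654057 to 20654413 the heights were again 6, 6, 4 and 9, with summits within 23 bp. In the opposite direction, the member on chromosome 16 at 14531567 to 14531884 had 7, 9, 2 and 3 reads, where both cocaine libraries were above both saline libraries. The 2 reads of saline replicate 1, the shallowest library, have an exact Poisson interval of 0.242 to 7.22 before any scaling.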

How the data were processed

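Peak lists of 4 ChIP libraries were used, 1 per library and not pooled. Bowtie 0.12.7 and Picard 1.37 are named, with build rn4, in the submitters' processing notes. Neither the peak caller nor how duplicates were handled is given in those sources. The file headers name 5 of 7 columns. Deposited column 6 was read from its values as a signal, the pileup height in reads, with no scaling to depth. Deposited column 7, read as a p-value, was not used. Per the labels' protocols, DNA was sheared to about 150 bp and went through 15 PCR cycles.

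Members and their limits were chosen with earlier results of these data known, and clusters, dense bins and length classes were set after their positions and lengths had been seen. Each library's value is its tallest peak that overlaps by at least 1 bp. Estimated depth adds 1 read for each running number that was not listed, and unlisted pileups counted as 1 read in ratios. Named regions were those with the largest sums, the tallest in saline replicate 1, the largest differences, the longest, and the first and last of the fullest 1 Mb windows, from which those with most to show were printed. Intervals are 95% Wilson, exact Poisson, exact conditional binomial or, for medians, order statistics. They cover counting error only, and PCR copies are not independent molecules. No test between groups was run, with 1 library per cocaine group. The rule was tested on simulated data. Python 3.11.15, numpy 2.4.6, pandas 2.3.3 and scipy 1.17.1 were used. No gene, repeat or sequence annotation of rn4 was used here. Coordinates are as deposited, and whether they count from 0 or 1 is not stated.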

Additional observations from a re-analysis of the deposited data

How the results depend on the processing

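No paired analysis was possible because the labels give no replicate numbers, and the numbers used here follow accession order and pair no libraries. With a lower limit of 5 reads there were 1122 members, 56.3% of them listed in saline replicate 1 and 28.7% at 3 reads or more there, with 39.6% of summit pairs within 50 bp, a median length of 307 bp and 82.2% within 1 Mb of another. With a limit of 7 reads the values were 144, 86.1%, 63.2%, 47.2%, 379.5 bp and 82.6%. With no upper limit they were 768, 84.6%, 65.5%, 53.0% and 382.5 bp, with a median of 4 reads in saline replicate 1. Requiring an overlap of 50% of the shorter peak moved only the summit share among the results recomputed, to 47.6%. Leaving out each library in turn gave 208 to 371 members, a listed share of 77.7% to 82.7%, a share at 3 reads or more of 50% to 60.6% and a median of 2.5 to 3 reads in saline replicate 1. The shares are from the 3 settings that keep that library. Each setting chose its regions anew, so its set need not be a part of the members. The log2 ratio of high-CPP to low-CPP reversed to -0.022 with estimated depth and to -0.19 with no scaling, and that of cocaine to saline replicate 2 moved to -0.18 with no scaling. Without the clusters of 10 or more members, an alternative chosen after seeing the data, the listed share was 68.8%, the summit share 51.5% and the share within 1 Mb 71.5%. Of 62 recomputed values 31 stayed within their interval or within 1.5 times the count. In saline replicate 1 the lowest listed height of 2 reads is close to the level of the members, so its depth limits what can be said of single regions.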
